A study of Sus scrofa with 12 samples.

Results

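MYH3 encodes the embryonic myosin heavy chain, and it was followed here as the single row with identifier ENSSSCG00000018007, on chromosome 12 in the deposited table, out of 19158 gene identifiers. The 6 mRNA libraries come from longissimus, the long back muscle, of Large White pig fetuses whose mothers ate an energy-restricted diet (RE) or a normal diet (NE) from mating on. Muscle was taken on gestation day (dg) 35, 55 or 90. There is 1 library for each diet and stage, named RE35, NE35, RE55, NE55, RE90 and NE90. According to the methods of the study, 1 fetus per sow from 4 sows was selected in each group, and whether their RNA was pooled is not stated there. A comparison of a pair of libraries therefore has no replicate check. All sows were of the same parity and mated with 1 boar, so every group shares the sire. The deposited columns of the restricted diet are headed SE and were read as RE.

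Myosin heavy chains are the motors of the thick filament: each uses ATP to pull on actin, and the kind of heavy chain present sets much of the speed of a fiber. Mammalian muscle changes its heavy chains as it grows. The embryonic form MYH3 and the perinatal form MYH8 are made in prenatal fibers and give way to slow and fast adult forms, and MYH3 is made again when adult muscle regenerates. In humans, mutations of MYH3 cause inherited contractures of the joints.

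MYH3 was among the most abundant transcripts of every library. It had 388502 reads in RE35 and 211853 in NE35, 592227 in RE55 and 416900 in NE55, and 264595 in RE90 and 215640 in NE90. Total counts were 11091317 to 12985505 per library. As a share of all counts, MYH3 took 3.32% in RE35 and 1.91% in NE35. At 55 dg the share was 4.56% in RE55 and 3.73% in NE55. At 90 dg it was 2.25% in RE90 and 1.69% in NE90. The share was thus highest in the 55 dg libraries and higher in RE than in NE at 3 of 3 stages. The exact 95% binomial intervals of these shares are narrow, from 3.31% to 3.33% in RE35 and from 1.90% to 1.92% in NE35, but they cover counting error only. In RE55, 1 read in 21.9 came from MYH3, against 1 read in 26.8 in NE55. By reads it was the first gene in RE35 and RE55, the second in NE35, NE55 and RE90, and the fourth in NE90, where TPM2, a tropomyosin of the thin filament, led with 6.37% of the counts.

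Per kilobase of gene, the place of MYH3 was lower, since its transcript is long. In RPKM (reads per kilobase of gene model, scaled to library depth, as deposited), MYH3 stood at 4954 in RE35 and 2816 in NE35, at 6887 in RE55 and 5396 in NE55, and at 3363 in RE90 and 2665 in NE90. That placed it 12th in RE35 and 25th in NE35, 10th in both libraries of 55 dg, and 22nd in RE90 and 44th in NE90 among all identifiers. On the scale of CPM (counts scaled to a fixed library total) corrected for library composition by TMM (the trimmed mean of M-values), MYH3 had 29111 in RE35 and 15072 in NE35, 45957 in RE55 and 39363 in NE55, and 23466 in RE90 and 21946 in NE90. The order of the libraries was RE55, NE55, RE35 and RE90 on all 3 scales. The last 2 places depended on the scale: NE90 stood above NE35 in TMM-scaled CPM, and below it in RPKM and in the share of counts. Neighbours in this order cannot be separated beyond the spread between animals, because no condition has a second library.

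**Figure D1:**
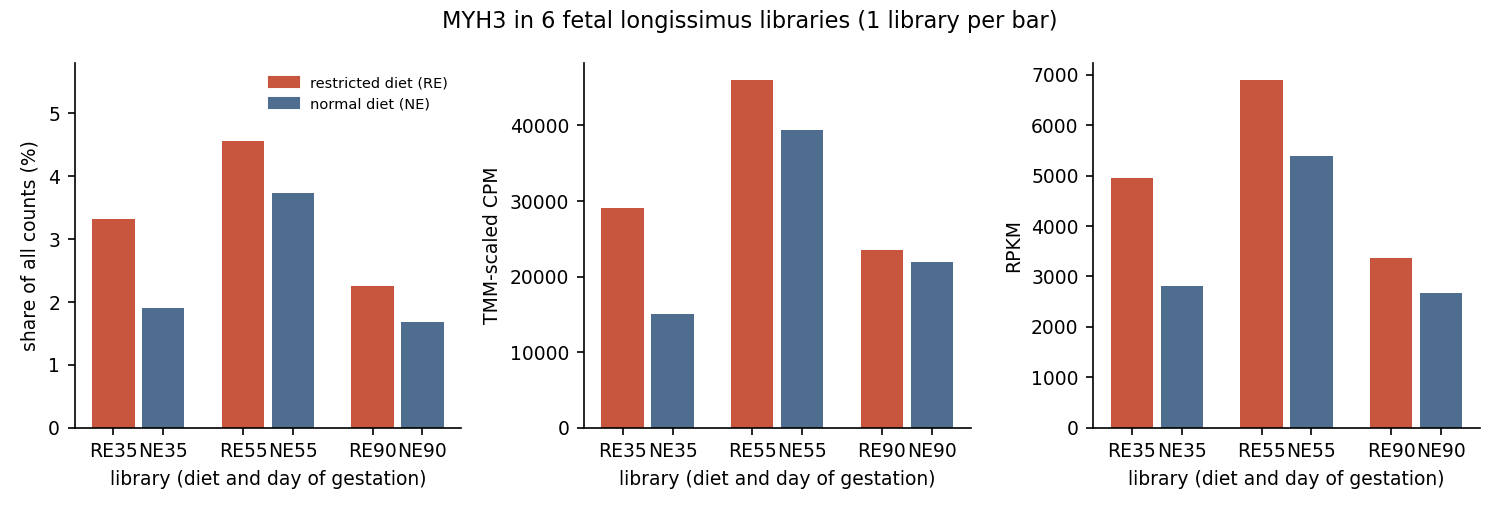
MYH3 in each of the 6 libraries as the share of all counts (left, %), as TMM-scaled CPM (middle) and as RPKM (right), with RE in red and NE in blue at 35, 55 and 90 dg. Each bar is 1 library with no error bar for animals. The bars of 55 dg are the tallest on each scale, and the RE bar exceeds the NE bar at each stage.

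Whether MYH3 changed with stage could be tested only across both diets, with 2 libraries a stage. MYH3 was higher at 55 dg than at 35 dg by 0.99 on the log2 scale (SE 0.645, 95% interval from -0.42 to 2.39), and this did not pass the test (edgeR quasi-likelihood test with diet and stage as factors, Benjamini-Hochberg adjusted p = 0.618 over 12872 genes). In that comparison 148 genes were called higher, which is 1.15% of those tested, and 104 lower (0.808%). MYH3 at 90 dg against 55 dg had a log2 difference of -0.89 (SE 0.641, 95% interval from -2.28 to 0.51, edgeR adjusted p = 1). No gene passed between these 2 stages in either direction (0% of those tested), while 676 stood under 0.05 before adjustment of p, and 48 passed in DESeq2. Between 90 dg and 35 dg the log2 difference of MYH3 was 0.10 (SE 0.640, 95% interval from -1.29 to 1.50, edgeR adjusted p = 0.953), a direction that turned to -0.38 under scaling by library size alone, to -0.25 without NE35 and to -0.14 without NE90. In that comparison 498 genes were called higher (3.87%) and 435 lower (3.38%).

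Within each diet, the profile of MYH3 had its highest value at 55 dg. In the RE libraries, MYH3 was 1.58-fold higher at 55 dg than at 35 dg (log2 ratio 0.66), and RE90 had 0.511 times the TMM-scaled level of RE55 (log2 ratio -0.97). In the NE libraries, it was 2.61-fold higher at 55 dg than at 35 dg (log2 ratio 1.39), and NE90 had 0.558 times the level of NE55 (log2 ratio -0.84). The ratio of NE55 to NE35 was the single one of these 4 past 2-fold, the fold threshold used by the study. In that comparison 15.2% of the genes were more than 2-fold higher, against 7.41% for RE55 over RE35. More than 2-fold lower were 8.86% for RE90 over RE55 and 13.2% for NE90 over NE55. The call followed the scale, with log2 ratios of 0.97 by library size alone and 0.94 in RPKM, both under 2-fold. Conversely, RE90 against RE55 passed 2-fold by library size alone (-1.02) and in RPKM (-1.03), and so did NE90 against NE55 (-1.15 and -1.02).

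The diet comparison asks how the restricted diet of the sow bears on this gene. At 35 dg MYH3 was 1.93-fold higher in RE35 than in NE35 (log2 ratio 0.95, 95% counting interval from 0.94 to 0.96), just under 2-fold, and 4.58% of the 13362 genes compared had a larger ratio. At 55 dg it was 1.17-fold higher in RE55 than in NE55 (log2 ratio 0.22), with 38.9% of genes above it. At 90 dg the ratio of RE90 to NE90 was 1.07-fold (log2 ratio 0.10), and the median of all genes was 0.09. MYH3 at 90 dg thus stood in the middle of all genes. The share of genes more than 2-fold higher in RE was 4% at 35 dg, 9.09% at 55 dg and 10.4% at 90 dg. Across the 3 stages, MYH3 was higher in RE by 0.41 on the log2 scale (SE 0.524, 95% interval from -0.73 to 1.56), which did not pass the test (edgeR quasi-likelihood test, adjusted p = 0.999). No gene passed for diet in either direction (0%), 301 genes stood under 0.05 before adjustment of p, and 3 passed in DESeq2. The direction of the ratio, higher in RE, held at each stage under 5 scalings (TMM, DESeq2 size factors, upper quartile, library size alone and RPKM), while its size at 90 dg ranged over log2 values from 0.04 with the upper quartile to 0.42 by library size alone.

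**Figure D2:**
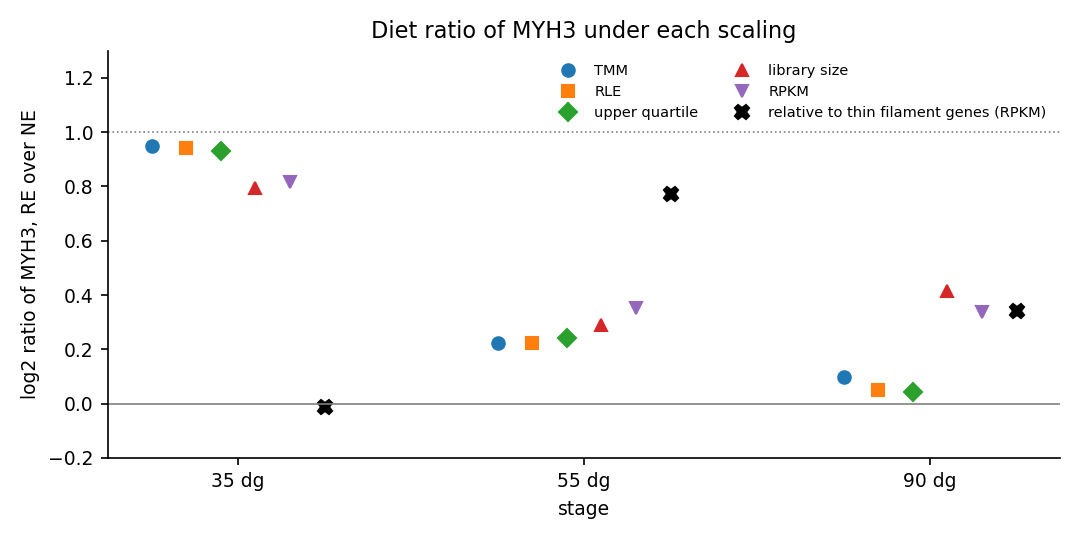
Log2 ratio of MYH3, RE over NE, at each stage under 5 scalings (colored symbols), and the same ratio set against the mean of 16 thin filament and Z-disc genes in RPKM (black crosses). The solid line marks no difference and the dotted line 2-fold. All scalings lie above 0, while the cross lies at -0.01 at 35 dg, at 0.77 at 55 dg and at 0.34 at 90 dg.

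The libraries also differed in the summed levels of marker genes of muscle and other tissues. In bulk muscle, fewer muscle cells and less MYH3 RNA per cell cannot be told apart. Markers of skeletal muscle (6 of 10 listed genes measured) summed to 5264 CPM in RE35 and 2985 CPM in NE35, and all 6 were higher in RE35. Markers of kidney and mesonephros (14 of 15 measured, none at 0 in all libraries) summed to 78.6 CPM in RE35 and 1152 CPM in NE35, against 28.0 to 81.6 CPM in the other 4 libraries. Markers of cartilage and bone (11 of 12 measured) summed to 1738 CPM in RE35, 447.5 CPM in NE35 and 32.4 to 198.6 CPM in the later libraries. The part of these tissues in the diet ratio of MYH3 at 35 dg was not tested. At 55 dg the muscle markers summed to 15500 CPM in RE55 and 17130 CPM in NE55, and at 90 dg to 30660 CPM in RE90 and 18400 CPM in NE90. Of the 6 markers, 3 were higher in RE55 than in NE55 and 5 in RE90 than in NE90, in TMM-scaled CPM. DES and ACTA1 had the most reads among them in RE90, with 230911 and 104522. DES, ACTA1 and the marker NEB are also on the thin filament and Z-disc list used below, so the lists overlap. Markers of connective tissue fibroblasts (9 of 10 measured) summed to 12700 CPM in RE35 and 9938 CPM in NE35, 10260 CPM in RE55 and 19280 CPM in NE55, and 11830 CPM in RE90 and 6638 CPM in NE90. They were thus lower in RE at 55 dg and higher in RE at 35 dg and 90 dg, and their part in the diet values of MYH3 and MYH8 was not tested.

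Set against other contractile genes of the same library, the picture at 35 dg differed from that of the ratio above. Thin filaments hold actin, tropomyosin and troponin, and Z-discs anchor them. Of 22 listed thin filament and Z-disc genes 16 were measured, and 16 of 16 had higher values in RE35 than in NE35. Their median ratio was 0.95 on the log2 scale, against 0.02 over all genes. TPM2 had 9851 RPKM in RE35 and 6266 in NE35. TNNC2, the fast troponin C, had 6529 RPKM in RE35 and 3605 in NE35. The log2 RPKM of MYH3 exceeded the mean of this list by 3.88 in RE35 and 3.89 in NE35, so the diet difference at 35 dg was -0.01 on this scale. At 55 dg the excess was 2.98 in RE55 and 2.21 in NE55, a difference of 0.77. In TMM-scaled CPM, 1 of the 16 genes was higher in RE55, while in RPKM TNNT1, TNNC2 and DES were higher there too. At 90 dg the excess was 1.03 in RE90 and 0.69 in NE90, a difference of 0.34. In TMM-scaled CPM, 6 of the 16 genes were higher in RE90, while in RPKM ACTN2 and LMOD2 were higher there too. With the median of the list in place of its mean, these differences were -0.11, 0.55 and 0.77. Against 9 measured thick filament and M-band partners they were 0.33, 0.73 and 0.06. MYH3 thus stood higher in RE relative to these list values at 55 dg and 90 dg under each of the 3 measures, if by only 0.06 in 1 of them. At 35 dg the sign depended on the list. The thick filament list includes MYBPC2, with 0.50 RPKM in RE55 and 9.22 in NE55, which lowers its mean in RE55. In TMM-scaled CPM, 5 of the 9 genes of that list were higher in RE55 than in NE55, with a median log2 ratio of 0.03.

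**Figure D3:**
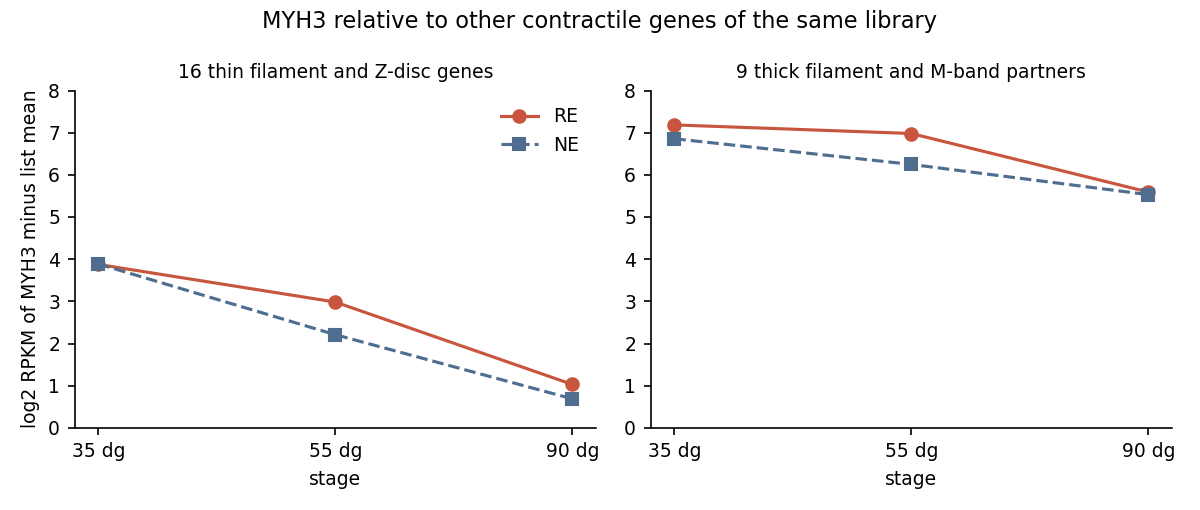
Log2 RPKM of MYH3 minus the mean log2 RPKM of 16 thin filament and Z-disc genes (left) and of 9 thick filament and M-band partners (right), for RE (red circles) and NE (blue squares) at 35, 55 and 90 dg. Each point is 1 library. The lines descend in both diets, from near 3.9 at 35 dg to 1.03 in RE90 and 0.69 in NE90 on the left.

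With stage, most of the thin filament genes rose, while MYH3 did not pass the test, and the difference between them was not itself tested. At 90 dg against 35 dg, 13 of the 16 thin filament and Z-disc genes rose and none fell (edgeR, adjusted p under 0.05, background 3.87% higher), with a median log2 difference of 3.03 against -0.04 over all genes. TPM2 rose by 2.97 on the log2 scale (SE 0.747, edgeR adjusted p = 0.0334), a call lost without NE35 (0.486), NE55 (0.069) or RE55 (0.163). TNNC2 rose by 3.13 (SE 0.694, edgeR adjusted p = 0.0200), a call lost without NE35 (0.336) and in DESeq2 (0.0829). TPM1, a further tropomyosin, rose by 3.56 (SE 0.645, edgeR adjusted p = 0.00731, and 0.115 without NE35). Without NE35, 4 of the 16 genes passed. At 55 dg against 35 dg, 5 of 16 rose (background 1.15%), and 1 did so without NE35, against 12 by DESeq2. Of the 9 thick filament and M-band partners 4 rose at 90 dg, among them MYBPC1, the slow myosin-binding protein C that sits on the thick filament. MYBPC1 had 341.3 RPKM in RE35 and 184.3 in NE35, and 1994 in RE90 and 1859 in NE90 (log2 difference 3.33, SE 0.605, edgeR adjusted p = 0.00732, and 0.148 without NE35). MYOM2, an M-band protein that ties thick filaments together, rose by 2.81 (SE 0.508, edgeR adjusted p = 0.00724, and 0.192 without NE35).

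Within its own family, MYH3 had the highest RPKM of the sarcomeric heavy chains measured in each library. Of 11 listed sarcomeric heavy chains 6 could be paired with an identifier, namely MYH3, MYH6, MYH7B, MYH8, MYH13 and MYH15. The adult fast forms MYH1, MYH2 and MYH4, the slow form MYH7 and MYH16 were not analysed here, so the shares below are of these 6 genes and not of all heavy chain RNA. Reads with more than 1 genome location were discarded by the authors, and heavy chains are alike in sequence, so the counts of each can be too low to an unknown degree. MYH6, for one, closely resembles MYH7.

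MYH3 made up 94.3% of the RPKM of these 6 genes in RE35 and 94.5% in NE35. At 55 dg the share was 91.9% in RE55 and 83.0% in NE55. At 90 dg it was 53.7% in RE90 and 66.2% in NE90. The shares were therefore alike between the diets at 35 dg, 8.93 percentage points higher in RE at 55 dg, and lower in RE at 90 dg (RE minus NE -12.51 points). These shares use no scaling between libraries. From counts in place of RPKM the share was 87.1% in RE55 and 79.5% in NE55, and 55.1% in RE90 and 65.9% in NE90, which left the direction of both differences as it was.

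**Figure D4:**
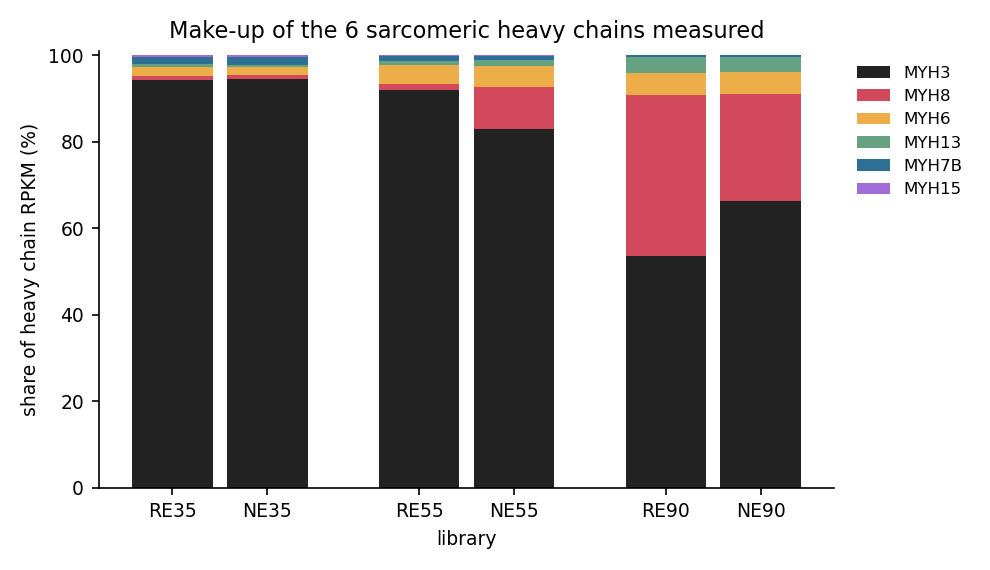
Share of each of the 6 measured sarcomeric heavy chains in their summed RPKM (%), by library, with RE left of NE at each stage. MYH3 (black) fills 94.3% and 94.5% of the bars of RE35 and NE35, 91.9% and 83.0% of those of RE55 and NE55, and 53.7% and 66.2% of those of RE90 and NE90, where MYH8 (red) takes most of the rest.

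MYH8, the perinatal heavy chain, was the member whose level differed most between libraries. It had 50.4 RPKM in RE35 and 27.3 in NE35, 113.2 in RE55 and 621.8 in NE55, and 2325 in RE90 and 998.5 in NE90. At 55 dg MYH8 was thus lower in RE55 than in NE55 (log2 ratio -2.59), while at 35 dg and 90 dg it was higher in RE (log2 ratios 1.02 and 0.98). Over both diets MYH8 rose by 5.79 on the log2 scale at 90 dg against 35 dg (SE 0.929, edgeR quasi-likelihood test, adjusted p = 0.00387). With each library left out in turn it also passed, at a lower adjusted p than with all libraries. Such fits leave a stage with a single library, so they are not read as added support. The libraries of 35 dg and 90 dg did not overlap in MYH8, which with 2 libraries a stage has an exact two-sided permutation p of 0.333. The share of all genes without overlap was not computed, so the lack of overlap is not read as a result. At 55 dg against 35 dg its log2 difference of 3.53 did not pass (edgeR adjusted p = 0.0802). It passed with some libraries left out and not without NE35 or NE55, under the same limit.

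The ratio of MYH3 to MYH8 within a library compares the embryonic with the perinatal form directly, and was added after seeing the data. MYH3 had 98.3 times the RPKM of MYH8 in RE35 and 103.3 times in NE35. At 55 dg the ratio was 60.9 in RE55 and 8.68 in NE55. At 90 dg it was 1.45 in RE90 and 2.67 in NE90. The ratio was lower at each later stage in both diets. Between the diets, the log2 of the ratio differed by -0.07 at 35 dg (95% counting interval from -0.16 to 0.02), within counting error. RE minus NE was 2.81 at 55 dg and -0.88 at 90 dg, so RE55 lay nearer to the 35 dg libraries than NE55 did, and RE90 lay farther from them than NE90 did. With 2 libraries a stage, an exact two-sided permutation test of a single value could not go below p = 0.333, and the diets at 1 stage could not be tested at all.

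**Figure D5:**
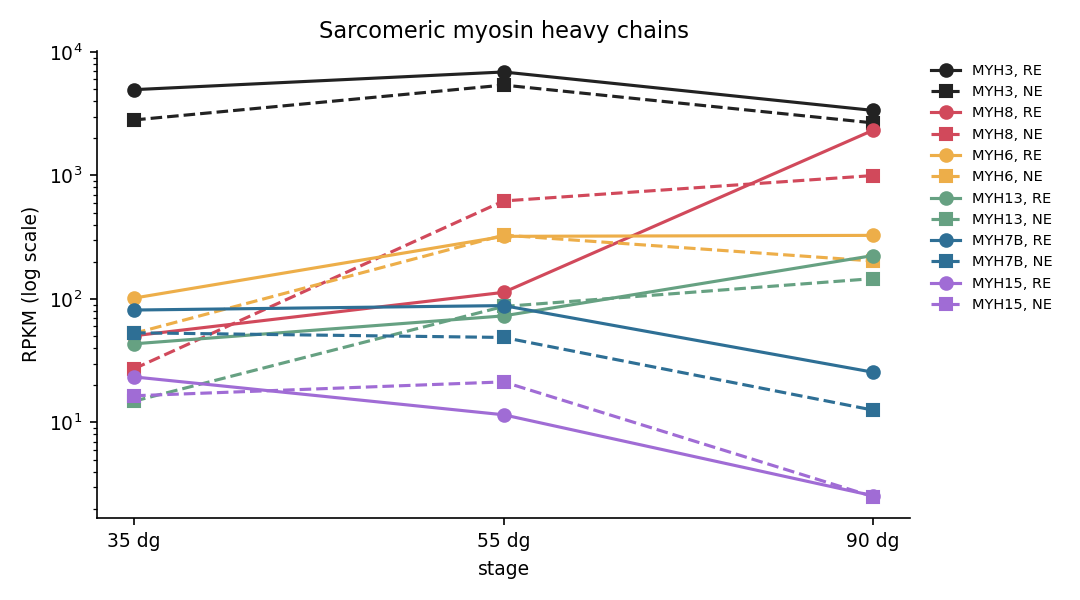
RPKM of the 6 measured sarcomeric heavy chains (log axis) at 35, 55 and 90 dg, RE as circles with solid lines and NE as squares with dashed lines. MYH3 (black) lies between 2665 and 6887 RPKM throughout, while MYH8 (red) lies at 50.4 RPKM in RE35 and 27.3 in NE35, and at 2325 RPKM in RE90 and 998.5 in NE90.

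The other measured heavy chains were far below MYH3. MYH6, the alpha heavy chain known from heart atria, had 101.7 RPKM in RE35 and 52.7 in NE35, 321.5 in RE55 and 328.8 in NE55, and 327.3 in RE90 and 203.0 in NE90. It rose at 55 dg against 35 dg by 2.45 on the log2 scale (edgeR adjusted p = 0.0470, and 1 without NE35) and at 90 dg by 2.22 (edgeR adjusted p = 0.0312, and 0.554 without NE35). The call was also lost at both stages without RE35, and at 55 dg without NE55. MYH13, the heavy chain known from eye muscles, rose at 90 dg against 35 dg by 3.16 (edgeR adjusted p = 0.00620, and 0.120 without NE35). It had 43.4 RPKM in RE35 and 14.9 in NE35, against 224.7 in RE90 and 146.2 in NE90. MYH7B, a slow-type heavy chain gene that carries a miRNA in an intron, moved the other way. It had 81.4 RPKM in RE35 and 53.2 in NE35, 88.4 in RE55 and 48.8 in NE55, and 25.5 in RE90 and 12.6 in NE90, and fell by 1.44 at 90 dg against 35 dg (edgeR adjusted p = 0.0429), a call lost when either 35 dg or either 90 dg library was left out, with adjusted p up to 0.548. MYH15 fell by 2.58 (edgeR adjusted p = 0.00573, and 0.117 without RE35), and had 2.55 RPKM in RE90 and 2.51 in NE90. MYH3 was thus the member of the 6 that passed neither test, while at 90 dg 3 of the others rose and 2 fell (background 3.87% higher and 3.38% lower). The calls of MYH6, MYH7B, MYH13 and MYH15 were each lost when a library was left out, as given above. None of the 6 passed for diet. That test fits a single diet difference for all stages, so differences of opposite sign cancel, as in MYH8 (log2 -0.07 over the stages).

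Of the non-muscle and smooth muscle heavy chains 2 of 4 were measured. MYH9, the non-muscle form of most cells, had 113.2 RPKM in RE35 and 156.8 in NE35, 97.1 in RE55 and 77.8 in NE55, and 100.3 in RE90 and 43.4 in NE90. At 35 dg MYH9 was thus lower in RE35, where MYH3 was higher. MYH11, the smooth muscle form, was at most 6.85 RPKM. It rose at 90 dg against 35 dg by 2.62 (edgeR adjusted p = 0.0286), a call lost without NE35 (0.087), RE35 (0.078) or RE90 (0.337).

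Proteins other than heavy chains also have forms typical of early muscle, and 7 of 10 such genes listed here were measured. None of the 7 passed for stage or diet. MYL4, the embryonic light chain, had 3854 RPKM in RE35 and 2621 in NE35, 4926 in RE55 and 2282 in NE55, and 796.0 in RE90 and 2125 in NE90. The diet ratio of MYL4 at 90 dg (log2 -1.66) thus ran opposite to that of MYH3 (0.10). This was not particular to MYL4. Of the 9 genes measured on the light chain list described below, MYL4 among them, 1 was higher in RE90 than in NE90 (median log2 ratio -1.44). At 55 dg 7 of these 9 genes were higher in RE55 than in NE55 (median 0.97). TNNT2, the cardiac troponin T that fetal skeletal muscle also makes, had 3559 RPKM in RE35 and 2335 in NE35, 3515 in RE55 and 2882 in NE55, and 1489 in RE90 and 2006 in NE90. ACTC1, the cardiac actin of early skeletal muscle, had 2736 RPKM in RE35 and 1569 in NE35, 3203 in RE55 and 2793 in NE55, and 2718 in RE90 and 1986 in NE90. Like MYH3, ACTC1 had its highest value in RE55. All 7 genes were higher in RE35 than in NE35 (median log2 ratio 0.74, against 0.02 over all genes), as were 16 of 16 thin filament and Z-disc genes. Of the 7 genes, 6 were higher in RE55 than in NE55 (median 0.46, against 0.004 over all genes). In RE90 against NE90, 3 were higher (median -0.54, against 0.09 over all genes).

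The list of light chains, which bind the neck of the heavy chain, had 9 of 14 genes measured, of which 8 are light chains and 1, MYLK2, is a kinase that acts on them. At 90 dg against 35 dg, 3 of the 8 light chains rose and none fell (background 3.87% higher and 3.38% lower). MYLK2 rose too (edgeR adjusted p = 0.00418, and 0.099 without NE35). MYL1, the fast alkali light chain, had 2212 RPKM in RE35 and 1284 in NE35 and 11670 in RE90 and 9693 in NE90 (log2 difference 3.04, SE 0.617, edgeR adjusted p = 0.0130, and 0.236 without NE35). MYL11, the fast regulatory light chain, rose by 2.97 (SE 0.764, edgeR adjusted p = 0.0365, 0.405 without NE35 and 0.139 without NE90). The third, MYL10, had 0.15 RPKM in RE35 and was listed at 0 in NE35, against 16.8 RPKM in RE90 and 16.3 in NE90 (edgeR adjusted p = 0.00097). MYLK2 and MYL10 were named after their values were seen. MYL11 had 5358 RPKM in RE90 and 15849 in NE90. All 4 listed myosin folding factors were measured and none passed for stage or diet. HSP90AA1, a general chaperone, had 604.7 RPKM in RE35 and 695.7 in NE35, 488.7 in RE55 and 479.9 in NE55, and 506.4 in RE90 and 530.6 in NE90. UNC45B, the muscle chaperone of the myosin head, had 69.0 RPKM in RE35 and 31.5 in NE35, 64.7 in RE55 and 44.7 in NE55, and 78.8 in RE90 and 61.8 in NE90. SMYD1, a muscle methyltransferase that binds myosin, had 37.5 RPKM in RE35 and 17.0 in NE35, 59.0 in RE55 and 37.0 in NE55, and 41.7 in RE90 and 38.6 in NE90. At 35 dg these muscle-specific factors were thus higher in RE35, while HSP90AA1 and the fourth, UNC45A (20.6 RPKM in RE35 and 25.2 in NE35), were lower there.

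Of 23 listed regulators of the myogenic programme 16 were measured and 15 tested. At 90 dg against 35 dg, 2 rose and none fell (background 3.87% higher and 3.38% lower), and none passed for diet. MYF6, a myogenic factor of differentiated fibers, had 31.0 RPKM in RE35 and 15.4 in NE35, and 56.1 in RE90 and 72.6 in NE90 (log2 difference 1.96, SE 0.450, edgeR adjusted p = 0.0230, 0.610 without NE35 and 0.111 without NE90). The other was MYOD1, a myogenic factor that commits cells to muscle, named after its values were seen, with 25.96 RPKM in RE35 and 16.8 in NE35, and 51.2 in RE90 and 36.1 in NE90 (log2 difference 1.47, SE 0.361, edgeR adjusted p = 0.0302). That call was lost without NE35 (0.648), RE35 (0.151) or NE90 (0.102). MEF2C, a transcription factor that acts with the myogenic factors, had 48.2 RPKM in RE35 and 27.6 in NE35, 58.5 in RE55 and 87.5 in NE55, and 93.1 in RE90 and 68.9 in NE90, and did not pass (edgeR adjusted p = 0.0641). In TMM-scaled CPM, each of the 15 tested regulators had a higher value in RE35 than in NE35. The middle one of these log2 ratios was 0.72, against 0.02 over all genes. At 55 dg 6 of the 15 were higher in RE55 than in NE55 (median log2 ratio -0.21, against 0.004 over all genes). At 90 dg 11 were higher in RE90 than in NE90 (median 0.44, against 0.09 over all genes). PAX3, the regulator left untested, had 10 reads in RE35 and 0 in NE35.

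The 8 genes whose TMM-scaled levels followed MYH3 most closely over the 6 libraries were outside the lists above. Among 5953 genes with a symbol and a mean of at least 10 CPM, 19 had a Pearson r above 0.9, and none of them belonged to the lists above. With so few of all genes past this level, absence from short lists is not read as a result. The 6 points share stages and diets, so r is given as a description. PREPL, a peptidase-like protein, was closest (r = 0.981), with 86.0 CPM in RE35 and 45.1 in NE35, 108.5 in RE55 and 113.1 in NE55, and 68.7 in RE90 and 59.3 in NE90. FNDC1 (r = 0.970) had 264.6 CPM in RE35 and 112.6 in NE35, 432.7 in RE55 and 501.4 in NE55, and 231.6 in RE90 and 167.0 in NE90. They were followed by VWDE (0.969), SEL1L (0.964), which acts in the disposal of misfolded proteins of the endoplasmic reticulum, SKP2 (0.958), which targets cell cycle inhibitors for degradation, AKAP11 (0.949), an anchor of protein kinase A, ARHGEF3 (0.937) and REEP1 (0.937). The least alike were CERS2 (-0.950), a ceramide synthase, CATSPER2 (-0.947) and COX8A (-0.942), a subunit of cytochrome c oxidase. Without NE35, 1 of these 8 genes was still among the 8 closest, and 3 to 6 were with any other library left out. Among the other heavy chains, r to MYH3 was 0.67 for MYH6, 0.60 for MYH7B, 0.38 for MYH15, 0.34 for MYH13 and 0.15 for MYH8.

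Small RNA libraries of the same diets and stages, with 1522142 to 3811231 counts each, give the muscle miRNAs beside MYH3. In mammals miR-208b lies in an intron of MYH7 and miR-499 in an intron of MYH7B. In TPM (counts scaled to the reads on miRNAs, as deposited), miR-208b had 361.4 in RE35 and 277.3 in NE35, 1665 in RE55 and 972.8 in NE55, and 353.4 in RE90 and 446.3 in NE90. miR-499-5p had 880.3 TPM in RE35 and 712.2 in NE35, 6364 in RE55 and 3565 in NE55, and 1202 in RE90 and 1797 in NE90. Both had their highest value in RE55, as MYH3 did (r with MYH3 0.90 and 0.85 over 6 pairs of libraries). So did miR-133a-3p, with 827.5 TPM in RE55 and 780.2 in NE55 (r 0.65). For the other muscle miRNAs listed, r was 0.61 (miR-133b), 0.59 (miR-486), 0.51 (miR-1), 0.40 (miR-206) and 0.40 (miR-378). miR-206, a miRNA of skeletal muscle fibers, had 25217 TPM in RE35 and 15914 in NE35, 58069 in RE55 and 102667 in NE55, and 98336 in RE90 and 122785 in NE90. miR-1, the abundant miRNA of heart and skeletal muscle, had 2302 TPM in RE35 and 1171 in NE35, 10382 in RE55 and 14490 in NE55, and 15103 in RE90 and 15774 in NE90. At 55 dg both were thus lower in RE55 than in NE55, while MYH3 was higher there.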

How the data were processed

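Per the study's methods, the authors trimmed the mRNA reads, aligned them to Sscrofa10.2 (TopHat2), kept uniquely placed reads and deposited them as raw counts for each gene. The deposited RPKM values are the authors' own, with 2 decimals. The small RNA tables hold the authors' counts of each miRNA and TPM. The annotation version and the strand setting are not given in the sources used here. All else was computed from these tables.

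A symbol was found for 11374 of the 19158 identifiers, and 91 have another symbol in a second source. edgeR 4.0.16 (R 4.3.3, limma 3.58.1) was fitted to the counts of all 6 libraries with stage and diet as factors, TMM scaling, a minimum of 1 CPM in 2 or more libraries, and Benjamini-Hochberg adjusted p under 0.05. DESeq2 1.42.0 was an alternative. Ratios of 2 libraries were taken on CPM after TMM scaling, using a prior count of 2 and genes that reach 1 CPM in either, with 95% counting intervals. Since each group is 1 library, p-values rest on the spread left by the additive model. Python 3.11.15, pandas 2.3.3, numpy 2.4.6, scipy 1.17.1 and matplotlib 3.10.9 were used.

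Named beside MYH3 are the heavy chains, up to 3 genes per list with the highest mean RPKM, and the 8 most and 3 least like genes, apart from genes said to be named after their values were seen. The gene and the lists were chosen with earlier results of these data known. Alternatives covered scaling, filter, prior count, test, list, and leaving out each library. No sequence was used here.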

Additional observations from a re-analysis of the deposited data

Results flagged for a closer look

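The diet differences of the balance between the embryonic and the perinatal heavy chain had opposite signs at 55 dg and 90 dg. The log2 ratio of MYH3 to MYH8 in RPKM, RE minus NE, was 2.81 at 55 dg and -0.88 at 90 dg. The share of MYH3 in the RPKM of the 6 measured heavy chains, RE minus NE, was 8.93 percentage points at 55 dg and -12.51 points at 90 dg. Each value rests on 1 library per diet, the comparison with MYH8 was added after seeing the data, and the difference between the stages was not tested.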

How the results depend on the processing

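The 4 tests of MYH3 were not passed under any scaling, filter, test or left-out library tried, and 41 of 44 alternative values kept their direction. The exceptions concern 90 dg against 35 dg, with -0.38 by library size alone, -0.245 without NE35 and -0.142 without NE90. With each library left out in turn, the log2 difference ranged from 0.618 to 1.42 for 55 dg against 35 dg, from -1.15 to -0.656 for 90 dg against 55 dg, from -0.245 to 0.571 for 90 dg against 35 dg, and from 0.119 to 0.58 for RE against NE. Pairing by replicate number was not possible because each group has 1 library and the groups share fewer than 2 replicate numbers. The stage term of the model already sets RE against NE within each stage.

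The ratios of pairs of libraries kept their sign in every alternative, and moved beyond counting error as follows. With DESeq2 size factors the log2 ratios were 0.940 (RE35 over NE35), 0.050 (RE90 over NE90), -0.775 (NE90 over NE55), 0.669 (RE55 over RE35) and -0.948 (RE90 over RE55). By library size alone they were 0.796, 0.289 and 0.416 for diet at 35, 55 and 90 dg, 0.967 and -1.147 within NE, and 0.460 and -1.020 within RE. With the upper quartile they were 0.932, 0.240 and 0.043 for diet, 1.335 and -0.778 within NE, and 0.644 for RE55 over RE35. In RPKM they were 0.815, 0.352 and 0.336 for diet, 0.938 and -1.018 within NE, and 0.475 and -1.034 within RE. A prior count of 0.5 moved none.

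Without MYH6, an alternative chosen after seeing the data, the share of MYH3 among the heavy chains was 96.15% in RE35 and 96.18% in NE35, 96.01% in RE55 and 87.39% in NE55, and 56.62% in RE90 and 69.68% in NE90. From counts it was 92.19% in RE35 and 92.59% in NE35, 87.15% in RE55 and 79.49% in NE55, and 55.07% in RE90 and 65.91% in NE90. Against the median of the thin filament list, the excess of MYH3 was 4.13 in RE35 and 4.23 in NE35, 3.07 in RE55 and 2.52 in NE55, and 1.21 in RE90 and 0.43 in NE90. Against the thick filament partners it was 7.18 in RE35 and 6.86 in NE35, 6.98 in RE55 and 6.25 in NE55, and 5.59 in RE90 and 5.53 in NE90. Without the 10 other leading genes in the total, MYH3 took 3.663% of counts in RE35 and 2.085% in NE35, 5.266% in RE55 and 4.361% in NE55, and 2.714% in RE90 and 2.111% in NE90. Of the 8 genes most like MYH3, 3 were kept with Spearman rho, 4 with log2(RPKM + 1), and 1 to 6 with a library left out. The cause of these shifts was not tested. Depth does not limit the level of MYH3, which had at least 211853 reads per library, and the lack of a second library per condition does.
The left-out-library values of other genes given with the results were chosen after seeing the data. Leaving out a library leaves a stage with a single library, and adjusted p then fell for some calls and rose for others.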
